A study of Mus musculus with 28 samples.

Results

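The genes described here encode the cytosolic and mitochondrial heat shock chaperones and their regulators, 40 genes taken from a fixed list of symbols. A gene was measured where the array annotation gave a probe set 1 symbol and that symbol was on the list, which held for 36 of the 40 genes and for 39 of the 17831 probe sets. Hspa1b, Hsp90ab1, Hspe1 and Hsf1 had no such probe set and were not analysed here. The samples were skeletal muscle of mice injected into the cerebral ventricles with interleukin 1b (IL-1b) or vehicle and killed 2, 4 or 8 h later. Of the 28 arrays, 13 were of IL-1b muscle (5 each for 2 and 4 h, 3 for 8 h) and 15 of vehicle muscle (5 for each time). Strain, sex, age and the muscle sampled were not given in the sources used here, and the samples hold no uninjected group. Whether each array came from its own animal is not said, and the p-values describe only the variation among these arrays, part of which may be technical. Each value is a deposited log2 value centred on its probe set, so that the median over the 28 arrays is 0. A value therefore shows how an array stands against the others for 1 gene. It gives no level, so the labelled tissue could not be checked against the level of its markers.

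Chaperones bind unfolded or partly folded proteins and help them to fold, to stay soluble or to be passed on for degradation. Hsp70 ATPases bind and release short exposed stretches in an ATP cycle that J-domain proteins start and exchange factors such as the Bag proteins end. Hsp90 matures signalling proteins, among them steroid hormone receptors, with cochaperones that set its ATP cycle. Small heat shock proteins hold clients without ATP, and in muscle several of them sit at the Z-disc and along filaments. Heat shock factors bind repeated nGAAn units (heat shock elements) in many of these genes under heat, oxidative or proteotoxic stress. In bulk muscle RNA, fewer cells of a type and less RNA per cell cannot be told apart.

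RefSeq promoter windows (GRCm38.p6, 250 bases before to 50 after the start) were found for 32 of the 40 genes. A pair of units in inverted repeat, GAANNTTC or TTCNNGAA, on either strand, stood in a window of 16 of these 32 genes (50%), against 17% of the 27025 genes of the RefSeq table. A row of 3 units, GAANNTTCNNGAA or TTCNNGAANNTTC, each of which holds pairs of the shorter kind, stood in 5 of 32 (15.6%), against 0.662% of all genes. Those 5 genes were Hsph1, Dnajb6, Chordc1, Hspd1 and Hspe1. A glucocorticoid response element with the letters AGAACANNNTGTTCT was in 0 of the 32 genes and in 0.0111% of all genes. Windows are shown for 6 genes, in lower case with the 2-unit and 3-unit elements in capitals. Hspb3, Hspb8 and Hspb1 are shown because their arrays separated IL-1b from vehicle at 8 h, and Bag3, Hspa1a and Hsph1 because their values moved with another member from array to array. They lie at chr13:113663627-113663926 (minus strand) for Hspb3, chr5:116422815-116423114 (minus strand) for Hspb8 and chr5:135887669-135887968 (plus strand) for Hspb1. Those of Bag3 at chr7:128523333-128523632 (plus strand), Hspa1a at chr17:34972107-34972406 (minus strand) and Hsph1 at chr5:149636287-149636586 (minus strand, the first of 2 windows) follow. A match is a description of the letters and not a bound site.
Hspb3: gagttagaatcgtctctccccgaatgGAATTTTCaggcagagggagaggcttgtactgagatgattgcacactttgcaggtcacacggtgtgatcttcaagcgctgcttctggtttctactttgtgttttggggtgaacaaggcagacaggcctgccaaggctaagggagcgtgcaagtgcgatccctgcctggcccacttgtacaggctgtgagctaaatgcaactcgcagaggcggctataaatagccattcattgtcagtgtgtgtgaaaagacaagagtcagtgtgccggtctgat
Hspb8: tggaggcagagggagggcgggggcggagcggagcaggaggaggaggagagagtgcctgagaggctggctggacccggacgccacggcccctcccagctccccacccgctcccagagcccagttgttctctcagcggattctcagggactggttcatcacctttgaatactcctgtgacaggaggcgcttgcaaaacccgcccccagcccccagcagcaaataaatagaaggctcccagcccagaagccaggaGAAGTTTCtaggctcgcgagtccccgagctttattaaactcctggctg
Hspb1: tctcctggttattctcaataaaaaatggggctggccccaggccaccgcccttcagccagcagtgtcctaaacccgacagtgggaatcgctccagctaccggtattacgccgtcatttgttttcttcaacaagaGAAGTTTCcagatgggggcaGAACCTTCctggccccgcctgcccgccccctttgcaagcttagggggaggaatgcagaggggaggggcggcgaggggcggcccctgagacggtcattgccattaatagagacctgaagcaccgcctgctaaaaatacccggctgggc
Bag3: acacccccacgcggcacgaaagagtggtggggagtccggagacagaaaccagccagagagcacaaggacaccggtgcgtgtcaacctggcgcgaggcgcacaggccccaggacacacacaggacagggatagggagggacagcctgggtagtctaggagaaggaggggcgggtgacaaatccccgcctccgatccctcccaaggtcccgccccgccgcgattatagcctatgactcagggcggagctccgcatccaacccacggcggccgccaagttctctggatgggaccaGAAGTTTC
Hspa1a: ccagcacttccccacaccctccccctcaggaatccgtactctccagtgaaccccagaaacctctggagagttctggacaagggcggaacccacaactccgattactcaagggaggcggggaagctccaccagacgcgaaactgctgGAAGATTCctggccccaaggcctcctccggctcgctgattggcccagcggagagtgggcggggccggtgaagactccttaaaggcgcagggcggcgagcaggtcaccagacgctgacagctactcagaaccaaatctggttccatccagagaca
Hsph1: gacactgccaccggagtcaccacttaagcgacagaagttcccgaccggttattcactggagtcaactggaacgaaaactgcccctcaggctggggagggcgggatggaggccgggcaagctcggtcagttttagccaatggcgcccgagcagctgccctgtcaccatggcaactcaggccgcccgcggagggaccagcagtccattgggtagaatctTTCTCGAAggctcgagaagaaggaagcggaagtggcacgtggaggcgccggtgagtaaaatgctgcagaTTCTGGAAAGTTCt
Counted from the start site, the first base of the element stood at -224 in Hspb3, 2 in Hspb8, 42 in Bag3 and -104 in Hspa1a. Hspb1 held a pair of elements, at -117 and -97. Hsph1 held elements at -33, 36 and 41, of which the last 2 overlap in a 3-unit row. The Hspb3 element thus lay farther upstream than that of the other genes shown.

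Some arrays stood apart and are named beside the results they touch. IL-1b 2 h replicate 2 lacked the response of its group in the endothelial adhesion genes: P-selectin (Selp) was at -0.29 there, whereas its group mates held 2.87 to 3.01 and vehicle 2 h arrays -0.471 to -0.228. Icam1 was at 0.19 in that array. The other IL-1b 2 h arrays held 2.29 to 2.64 and the vehicle 2 h arrays -0.25 to 0.15. The spread over all probe sets was widest in IL-1b 8 h replicate 22, vehicle 8 h replicate 1 and vehicle 2 h replicate 7, with SDs of 0.298 to 0.33. The mean of the 6 measured shared muscle markers stayed between -0.0996 and 0.0741 on every array. Means of the 6 measured slow-fibre markers ranged from -0.167 to 0.562 in IL-1b 8 h arrays and from -0.146 to 0.572 in vehicle 8 h arrays. At 2 h they lay lower after IL-1b, at -0.484 to 0.0481, against -0.193 to 0.414 in vehicle arrays. At 4 h they held -0.67 to -0.0247 in IL-1b arrays, against -1.02 to 0.474 in vehicle arrays.

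The first question was whether IL-1b in the brain moved chaperone transcripts in muscle. At 8 h, Hspb3, a small heat shock protein of skeletal and heart muscle that pairs with Hspb2, was 1.52-fold lower after IL-1b than after vehicle. It was the only one of 36 member genes past a Benjamini-Hochberg adjusted p of 0.01 in limma, against 2.09% of all 17831 probe sets in either direction and 1.07% in the lower direction. At 2 h no member passed, against 0.0729% of all probe sets, and at 4 h none passed, against 0.847%. At an unadjusted p under 0.05, 3 members passed at 2 h, 3 at 4 h and 6 at 8 h, against 10.6%, 8.78% and 12.9% of all probe sets. The count at 2 h rested on IL-1b 2 h replicate 2, since without it 7 members had an unadjusted p under 0.05, against 14.9% of all probe sets. Those 7 were Hspa1a, Hsph1, Dnajb1 and Fkbp4, lower after IL-1b, and Dnaja2, Dnajb6 and Bag1, higher, and none passed the adjusted limit.

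**Figure D1:**
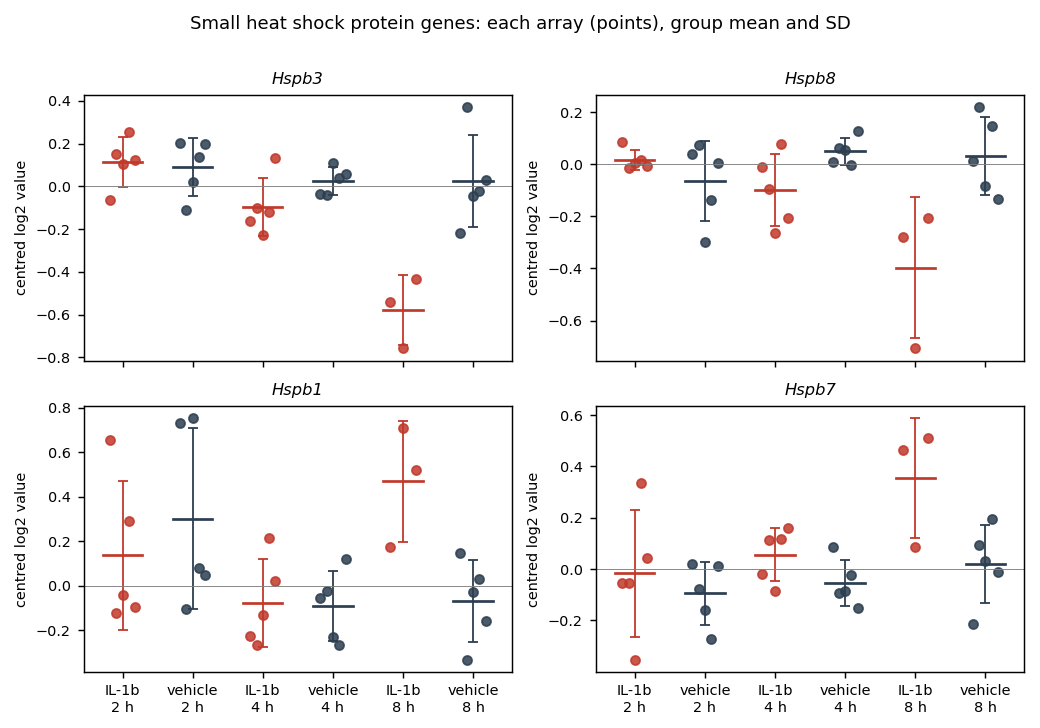
Centred log2 values (vertical axis) of Hspb3, Hspb8, Hspb1 and Hspb7, IL-1b left of vehicle at 2, 4 and 8 h; each point is an array, with the group mean as a line and the SD as whiskers. The 3 IL-1b 8 h arrays of Hspb3, at -0.758 to -0.435, all lie under the 5 vehicle 8 h arrays, at -0.22 to 0.371.

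Hspb3 stood at -0.542, -0.758 and -0.435 in the 3 IL-1b 8 h arrays, against -0.22, 0.371, -0.0445, -0.0203 and 0.0309 in the 5 vehicle 8 h arrays. Every IL-1b array was below every vehicle array. The log2 difference was -0.60 ± 0.10 (SE, n = 3 and 5), with a 95% interval of -0.82 to -0.39 and an adjusted p of 0.000481 in limma. The difference for Hspb3 was 0.02 at 2 h (adjusted p = 0.927) and -0.12 at 4 h (adjusted p = 0.832). The IL-1b effect on Hspb3 at 8 h minus that at 2 h was -0.63 ± 0.14, with an adjusted p of 0.0162. Minus that at 4 h it was -0.48 ± 0.14, with an adjusted p of 0.14, so neither change of effect passed 0.01. The Hspb3 call was lost when the 8 h arrays were fitted on their own (adjusted p = 0.093) and after a further quantile normalization (-0.46, adjusted p = 0.0121). It was kept without the 3 arrays of widest spread, at -0.57 with an adjusted p of 0.00321. That fit held fewer 8 h arrays, since it left out IL-1b replicate 22, the lowest for Hspb3, and vehicle replicate 1. Means of macrophage markers (9 measured of 10) also stood apart at 8 h, at 0.071 to 0.274 in IL-1b arrays, against -0.14 to 0.0309 in vehicle arrays. Neutrophil markers (10 of 10) held 0.0767 to 0.278, against -0.224 to 0.123, and endothelial markers (10 of 10) -0.0536 to -0.0123, against -0.0232 to 0.26. Of the neutrophil markers 1 passed at 8 h, and their differences had a median of 0.05 and a highest value of 2.41. Adipocyte markers (8 of 10) held -0.225 to 1.22 in IL-1b 8 h arrays, against -0.302 to 0.28 in vehicle, and fast-fibre markers (9 of 11) -0.101 to 0.0225, against -0.0879 to 0.0308. Over the arrays, with group means removed, Hspb3 had a Pearson r of -0.11 with the macrophage, 0.0626 with the neutrophil and -0.172 with the endothelial mean. With the adipocyte and fast-fibre means its r was 0.00958 and 0.029. The part of these cells in the Hspb3 difference was not tested.

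Hspb8, which works with Bag3 in the removal of damaged filament proteins by autophagy, came next. It stood at -0.278, -0.707 and -0.206 in IL-1b 8 h arrays, against 0.0116, 0.219, -0.0827, 0.148 and -0.135 in vehicle 8 h arrays. These groups did not overlap either, and replicate 22 was far below the other IL-1b arrays. The log2 difference of Hspb8 was -0.43 ± 0.10 (95% interval -0.64 to -0.22, adjusted p = 0.0108 in limma), just outside the threshold. Without IL-1b 8 h replicate 22 it was -0.27, with an adjusted p of 0.158. The IL-1b effect on Hspb8 at 8 h minus that at 2 h was -0.51 (adjusted p = 0.0566). Bag3 itself differed by 0.01 at 8 h, with an adjusted p of 0.993.

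Other small heat shock proteins took higher values after IL-1b at 8 h, without passing the test. Hspb1 (Hsp27), a stress-inducible protein that guards actin and other filaments, stood at 0.174, 0.71 and 0.521 in IL-1b arrays, against 0.146, -0.331, -0.029, 0.0306 and -0.157 in vehicle arrays. All 3 IL-1b values of Hspb1 lay above all vehicle values, the lowest by a small margin. Its log2 difference was 0.54 ± 0.19 (95% interval 0.15 to 0.92, adjusted p = 0.134). Over the arrays, with group means removed, Hspb1 had a Pearson r of 0.556 with the mean of the fibroblast and matrix markers. That mean, over 9 measured genes, ranged from -0.696 to 0.103 in IL-1b 8 h arrays and from -0.0413 to 0.426 in vehicle 8 h arrays, and its part in the Hspb1 values was not tested. Hspb7, a small heat shock protein of heart and skeletal muscle, stood at 0.464, 0.0868 and 0.512 in IL-1b 8 h arrays, against -0.214, 0.0951, 0.0303, 0.194 and -0.0117 in vehicle 8 h arrays. The groups overlapped in 1 IL-1b array, replicate 22, and the difference was 0.34 ± 0.12 (adjusted p = 0.121). Cryab and Hspb6, both abundant muscle small heat shock proteins, differed by 0.05 and -0.05 at 8 h, and Hspb2, the partner of Hspb3, by -0.09. The class thus held genes on both sides of 0 at 8 h, between -0.60 for Hspb3 and 0.54 for Hspb1.

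**Figure D2:**
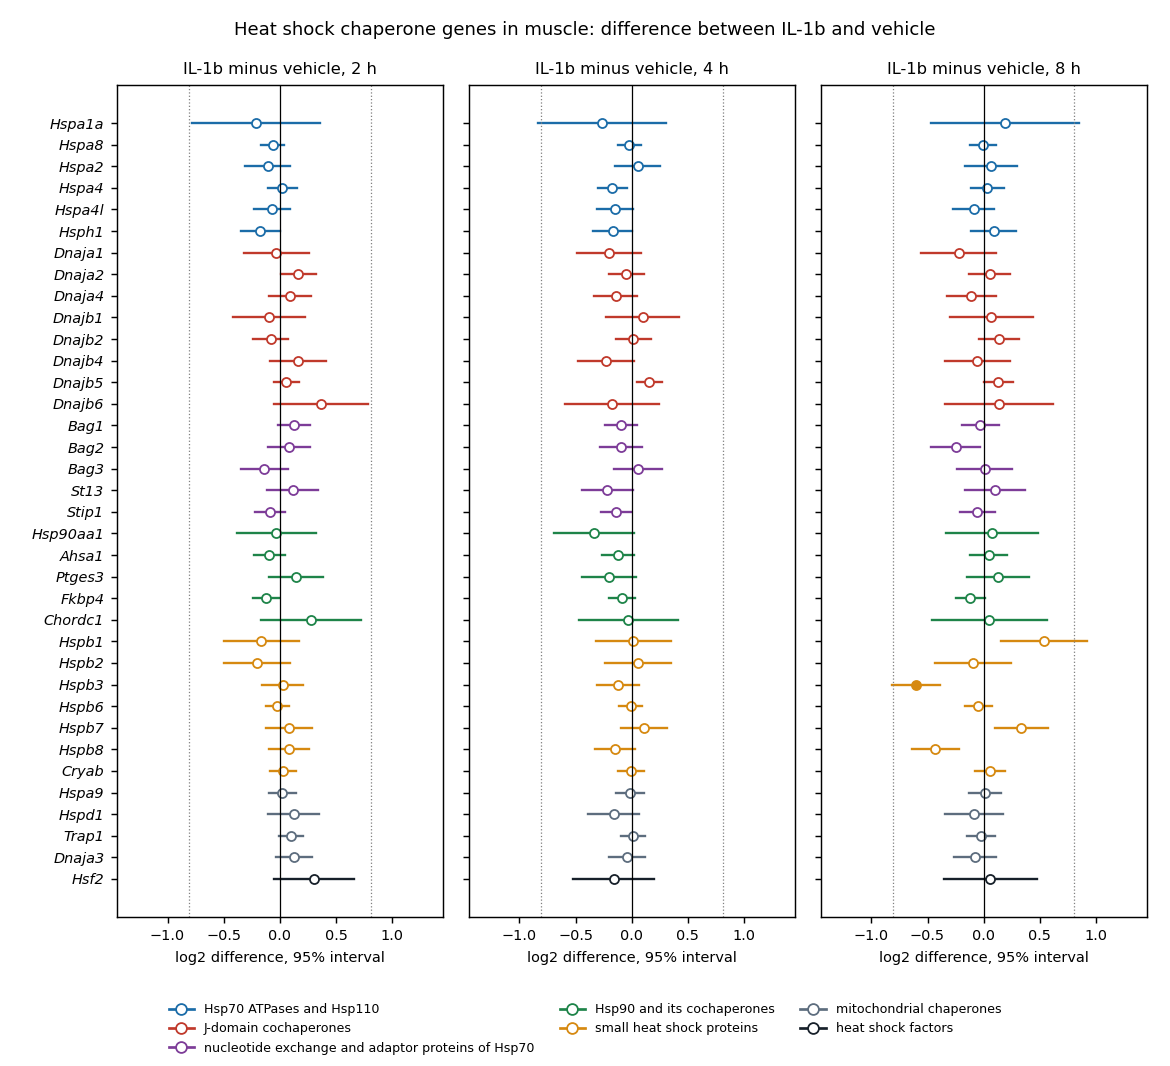
Log2 difference, IL-1b minus vehicle, with its 95% interval for each of the 36 genes at 2, 4 and 8 h, coloured by class; filled points passed an adjusted p of 0.01 and dotted lines mark 1.75-fold. The point for Hspb3 at 8 h, at -0.60, is the filled one.

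In the Hsp70 class, the ATPases and the Hsp110 proteins that reload them with ATP, differences lay between -0.21 and 0.02 at 2 h, -0.26 and 0.05 at 4 h, and -0.09 and 0.19 at 8 h. Hspa1a, the stress-inducible Hsp70, had the lowest difference at 2 and 4 h and the highest at 8 h. The constitutive Hsp70, Hspa8, differed by -0.07, -0.02 and -0.01 at 2, 4 and 8 h, with a 95% interval of -0.13 to 0.11 at 8 h. Its probe set is numbered among sets for genes of chromosome 5, whereas Hspa8 lies on chromosome 9. It may therefore measure a near-identical copy, which was not tested.

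J-domain proteins bring clients to Hsp70 and switch on its ATPase. Their differences lay between -0.10 (Dnajb1) and 0.36 (Dnajb6) at 2 h, -0.23 (Dnajb4) and 0.16 (Dnajb5) at 4 h, and -0.22 (Dnaja1) and 0.13 at 8 h. Dnajb5 stood at 0.111, 0.155, 0.146, 0.0783 and 0.0214 in IL-1b 4 h arrays, against 0.0379, 0.0112, -0.0355, -0.167 and -0.122 in vehicle 4 h arrays. Only the lowest IL-1b value of Dnajb5 fell within the vehicle range. The difference was 0.16 ± 0.05, a 1.12-fold higher value, with an adjusted p of 0.206. At 2 h the values of Dnajb1, the inducible partner of Hspa1a, and of Hspa1a depended on replicate 2. That array held 1.03 for Dnajb1 and 1.72 for Hspa1a, against -0.177 to 0.0613 and -0.254 to 0.338 in the other 4 IL-1b 2 h arrays. Vehicle 2 h arrays held 0.0818 to 0.661 for Dnajb1 and -0.0503 to 1.2 for Hspa1a. Without replicate 2 the IL-1b minus vehicle difference at 2 h was -0.32 ± 0.11 for Dnajb1 (adjusted p = 0.206) and -0.56 ± 0.21 for Hspa1a (adjusted p = 0.263). Again no member passed without that array, against 0.224% of all probe sets.

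Exchange factors and adaptors release clients from Hsp70 or hand them on to Hsp90, and their differences ran from -0.14 (Bag3) to 0.12 (Bag1) at 2 h. At 4 h they ran from -0.22 (St13) to 0.05 (Bag3), and at 8 h from -0.25 (Bag2) to 0.10 (St13). Stip1, the Hop protein that bridges Hsp70 and Hsp90, stood at -0.199, -0.0807, -0.172, -0.00698 and -0.161 in IL-1b 4 h arrays, against 0.0591, 0.00669, -0.00576, -0.000342 and 0.0309 in vehicle 4 h arrays. Ahsa1, which speeds the Hsp90 ATPase, stood at -0.136, -0.0591, -0.0344, -0.107 and -0.0386 in IL-1b 4 h arrays, against 0.00577, 0.0114, 0.0763, 0.0678 and 0.0858 in vehicle 4 h arrays. Both genes had every IL-1b array below every vehicle array, in Stip1 by a very small margin. Their differences were small, -0.14 ± 0.06 for Stip1 (adjusted p = 0.51) and -0.12 ± 0.07 for Ahsa1 (adjusted p = 0.665). Groups that do not overlap were found in 2 members at 4 h, against 3.5% of all probe sets. At 8 h they were found in Hspb1, Hspb3 and Hspb8, against 6.67%, and at 2 h in none, against 2.41%.

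In the Hsp90 class the 5 measured genes all had a negative difference at 4 h, between -0.34 (Hsp90aa1, the inducible Hsp90) and -0.03 (Chordc1). The interval of Hsp90aa1 ran from -0.69 to 0.02, with an adjusted p of 0.606, and its second probe set gave -0.32. At 2 h the class lay between -0.12 (Fkbp4) and 0.28 (Chordc1), and at 8 h between -0.12 (Fkbp4) and 0.13 (Ptges3). Fkbp4 and Ptges3 (p23) both act in the assembly of steroid receptors with Hsp90.

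Mitochondrial chaperones had the narrowest ranges, 0.02 to 0.12 at 2 h, -0.16 to 0.01 at 4 h and -0.09 to 0.01 at 8 h. Hspa9 (mortalin), the import Hsp70, differed by 0.02, -0.01 and 0.01, and Hspd1 (Hsp60), the matrix folding chamber, by 0.12, -0.16 and -0.09. Trap1, the mitochondrial Hsp90, differed by 0.10, 0.01 and -0.02. Hsf2, the measured heat shock factor, differed by 0.30, -0.16 and 0.06 with adjusted p of 0.517, 0.916 and 0.973. The class ranges at 2 h include IL-1b 2 h replicate 2. Without that array the difference at 2 h was 0.37 for Hsf2, 0.19 for Hspd1, 0.50 for Dnajb6 and 0.35 for Chordc1, none past the threshold.

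Seen over the 36 genes, the median difference was 0.02 at 2 h, -0.10 at 4 h and 0.02 at 8 h, beside -0.02, 0.00 and 0.00 over all probe sets. At 4 h 27 members had a negative difference and 9 a positive one, whereas 51.3% of all probe sets were positive. Members are correlated with each other, so these counts are not of independent genes. Means of the neutrophil markers also stood apart at 4 h, at 0.141 to 0.435 in IL-1b arrays, against -0.17 to 0.0667 in vehicle arrays, and endothelial means overlapped little, at -0.294 to -0.1, against -0.11 to 0.213. Of 10 endothelial markers 2 passed as lower and of 10 neutrophil markers 1 as higher. The differences of the neutrophil markers at 4 h had a median of 0.13 and a highest value of 2.05. Over all arrays, group means removed, Hsp90aa1 had r of -0.585 with the neutrophil and 0.463 with the endothelial mean. The neutrophil r was the lowest of any member, and the highest was 0.397 (Dnajb5). These r values include IL-1b 2 h replicate 2, whose neutrophil mean was -0.01, against 0.4455 to 0.7478 in its group mates. Its endothelial mean was 0.0645, against -0.1364 to -0.03725. The 6 measured slow-fibre markers all had a negative difference at 4 h, with a median of -0.33, and 0 of them passed. The part of these cells and fibres in the differences at 4 h was not tested. The 95% interval lay within 1.75-fold, the fold limit of the study's design, for 36 genes at 2 h, 35 at 4 h and 33 at 8 h, against 98.3%, 98.8% and 97.3% of all probe sets. The exceptions were Hspa1a at 4 h and Hspa1a, Hspb1 and Hspb3 at 8 h. Without IL-1b 2 h replicate 2 the count at 2 h was 33, against 97.2%, the exceptions being Hspa1a, Dnajb6 and Chordc1. A joint rule took the limits of the study's design, an adjusted p under 0.01 over the 6 groups and at least 1.75-fold. Its p came from the moderated F-test in limma, so the shares given here need not be those of the study's own selection. No member met this rule, against 0.684% of all probe sets. Without the fold limit Hspb3 met it, against 6.14%, and so did the second probe set of Dnaja1 (adjusted p = 0.000565), though not the first (0.0376). The change of the IL-1b effect passed in no member, against 0.0505% of all probe sets from 2 to 4 h, 0.174% from 4 to 8 h and 0.527% from 2 to 8 h.

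The vehicle groups show how the same genes varied with time after the control injection. No member passed 0.01 at 8 h against 2 h, against 0.852% of all probe sets, at 4 h against 2 h (0.101%) or at 8 h against 4 h (0.129%). At an unadjusted p under 0.05, 11 members passed at 8 h against 2 h, 10 of them lower at 8 h, beside 10.3% of all probe sets. At 4 h against 2 h 7 members passed that limit, beside 11.2%, and at 8 h against 4 h 5 passed, beside 8.42%. The 10 lower genes were Hspa1a, Hsph1, Hspa4l, Dnaja1, Dnajb4, Stip1, Hsp90aa1, Ahsa1, Fkbp4 and Hspb1, and the higher one was Dnajb6. They were counted after their values were seen.

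**Figure D3:**
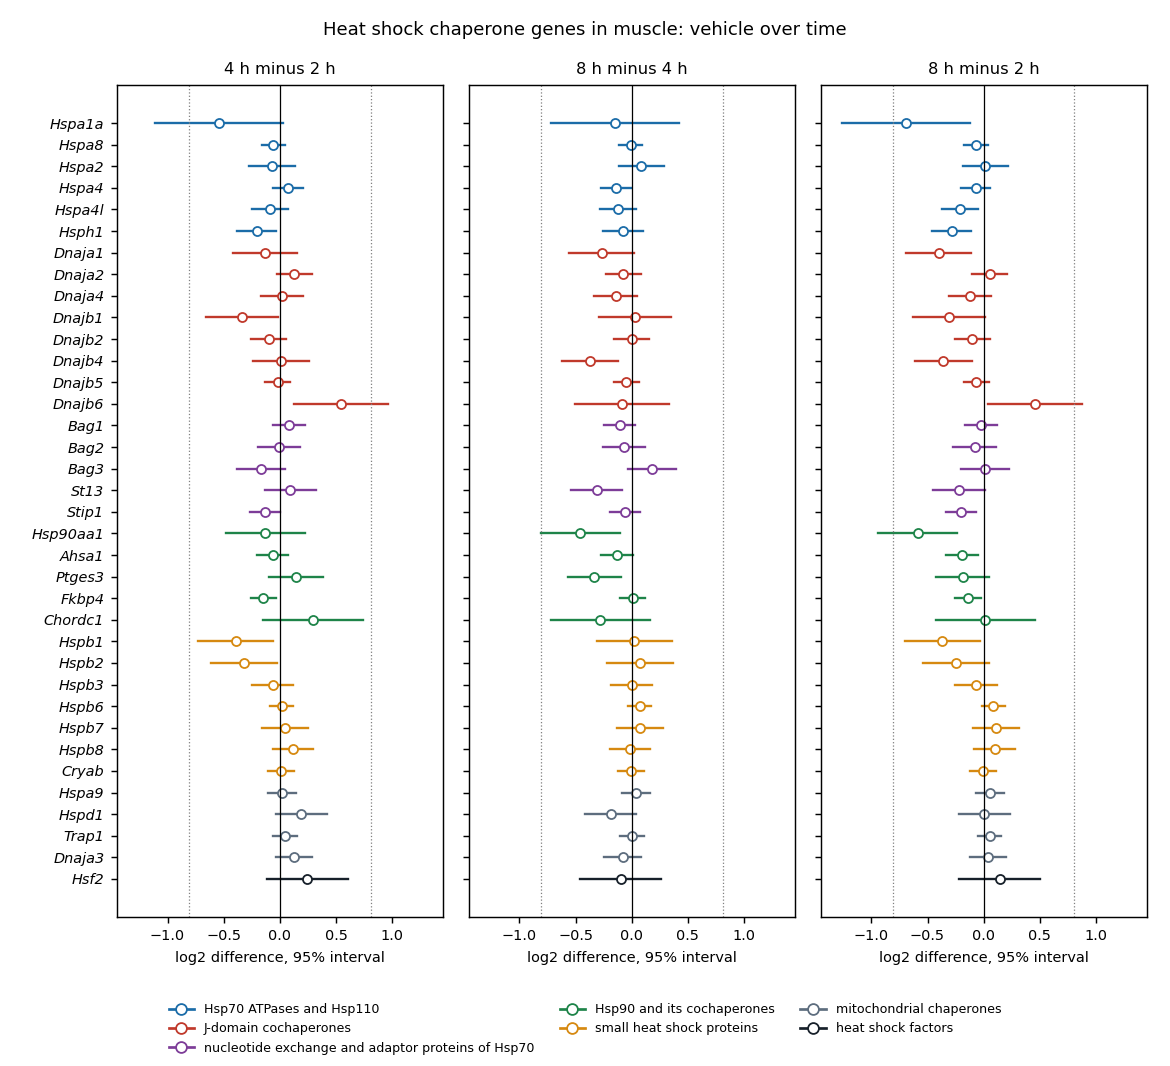
Log2 differences between vehicle groups, later minus earlier, with 95% intervals for the 36 genes; dotted lines mark 1.75-fold and open points did not pass an adjusted p of 0.01. At 8 h minus 2 h, Hspa1a lies at -0.69, Hsp90aa1 at -0.59 and Dnajb6 at 0.46.

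Hsp90aa1 stood at -0.799, 0.00817, -0.151, -0.223 and -0.511 in vehicle 8 h arrays, against 0.627, 0.642, -0.196, 0.124 and 0.0627 in vehicle 2 h arrays. The groups overlapped through vehicle 2 h replicate 7, 1 of the arrays of widest spread, as was the lowest 8 h array. The difference was -0.59 ± 0.17 (95% interval -0.94 to -0.23, adjusted p = 0.08), and the second probe set, which followed the first with r = 0.971, gave -0.66 (adjusted p = 0.0219). The first set is numbered among sets for genes of chromosome 11, whereas Hsp90aa1 lies on chromosome 12.

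Dnaja1, a J-domain partner of Hspa8, stood at -0.496, 0.0685, -0.0779, -0.324 and -0.338 in vehicle 8 h arrays, against 0.42, 0.413, -0.394, 0.282 and 0.104 in vehicle 2 h arrays. All but 1 of the 2 h arrays, replicate 7, lay above all 8 h arrays. The difference was -0.40 ± 0.14, with an adjusted p of 0.195, and without the 3 arrays of widest spread it was -0.47, with an adjusted p of 0.00592. The second Dnaja1 probe set passed in limma with all arrays, at -0.47 ± 0.09 and an adjusted p of 0.00492. It stood at -0.33, 0.108, -0.0627, -0.329 and -0.16 in vehicle 8 h arrays, against 0.525, 0.395, 0.0116, 0.427 and 0.232 in vehicle 2 h arrays. That call was lost on leaving out any of vehicle 2 h replicates 1, 5 and 9 or vehicle 8 h replicates 1, 17 and 21, with adjusted p of up to 0.0245. The set is numbered among sets for genes of chromosome 7, whereas Dnaja1 lies on chromosome 4, and it followed the first set with r = 0.798.

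Hsph1, the inducible Hsp110, stood at 0.00573, 0.0543, -0.0597, -0.168 and -0.0817 in vehicle 8 h arrays, against 0.543, 0.224, 0.278, 0.108 and 0.0213 in vehicle 2 h arrays. Only the lowest 2 h value of Hsph1 lay within the 8 h range. The difference was -0.28 ± 0.08 (adjusted p = 0.0869). Hspa1a stood at 0.139, -0.247, -0.00926, -0.424 and -0.221 in vehicle 8 h arrays, against 1.2, 0.56, 0.481, 0.515 and -0.0503 in vehicle 2 h arrays. Its difference of -0.69 ± 0.28 was the largest in size among members in this comparison and its error was large too (adjusted p = 0.298). Stip1 and Ahsa1 differed by -0.20 ± 0.06 and -0.19 ± 0.07 at 8 h against 2 h, with adjusted p of 0.14 and 0.191.

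Between 8 and 4 h after vehicle, 26 members had a negative difference and 10 a positive one, whereas 52.9% of all probe sets were positive. Here too the counts are not of independent genes. The median of the members was -0.07. Without the 3 arrays of widest spread it was -0.03, beside -0.02 over all probe sets, with 25 members negative. Dnajb4, a J-domain protein close in family to Dnajb1, stood at -0.57, 0.0459, -0.0633, -0.376 and -0.442 in vehicle 8 h arrays, against 0.168, 0.336, -0.0543, -0.00555 and 0.00555 in vehicle 4 h arrays. In 4 of the 5 8 h arrays Dnajb4 lay below all 4 h arrays. The difference was -0.37 ± 0.12 (adjusted p = 0.275). Ptges3 stood at -0.613, -0.0555, 0.0369, -0.264 and -0.263 in vehicle 8 h arrays, against -0.0427, 0.255, 0.00483, 0.11 and 0.179 in vehicle 4 h arrays. These groups overlapped, and the difference was -0.33 ± 0.12 (adjusted p = 0.326). In both genes the lowest 8 h value was that of vehicle 8 h replicate 1, among the arrays of widest spread. The second Ptges3 probe set gave -0.34, but it is numbered among sets for genes of chromosome 6, whereas Ptges3 lies on chromosome 10. At 4 h against 2 h, Dnajb1 was the member whose groups did not overlap, against 2.57% of all probe sets, with every 4 h array lower, from -0.297 to 0.0633, against 0.0818 to 0.661 at 2 h. The difference was -0.33, with an adjusted p of 0.43. No member's groups were apart at 8 h against 4 h (2.19% of all probe sets) or at 8 h against 2 h (2.44%).

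Members also varied from array to array inside the groups. Hspa1a had the widest spread of all members, a within-group SD of 0.472 that only 0.572% of all probe sets exceeded, and Hspa8 one of 0.0666 that 96.2% exceeded. With the group means removed, correlations over the 28 arrays are given as a description, since all genes of an array share its RNA and hybridization. Over 630 pairs of members the median r was 0.177, with 53 pairs over 0.7 and 13 below -0.7. Without the 3 arrays of widest spread the median was 0.119, with 26 and 6 such pairs. The share of such pairs among all probe sets was not computed, so these counts are not shown to be particular to the members.

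**Figure D4:**
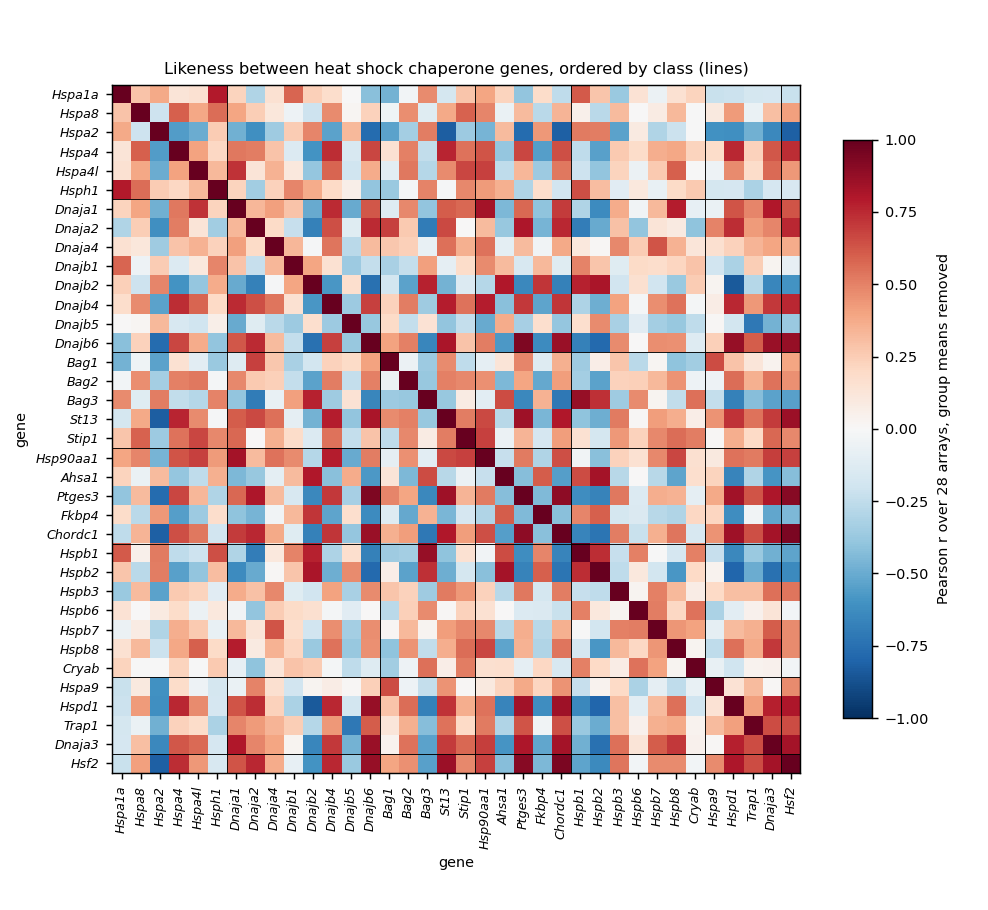
Pearson r between members over 28 arrays after group means were removed, from -1 (blue) to 1 (red), with genes ordered by class on both axes. The strongest cells join Chordc1 with Hsf2 (0.945) and Dnajb6 with Ptges3 (0.935).

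The pairs with the highest r were Chordc1 with Hsf2 (0.945) and Dnajb6 with Ptges3 (0.935). Genes of these pairs also moved with the overall spread of the array, with r of -0.647 for Chordc1, -0.682 for Hsf2, -0.769 for Dnajb6 and -0.697 for Ptges3, and the part of that spread in the pairs was not tested. Without the 3 widest arrays the r values were 0.888 and 0.854. Dnajb2 and Hspd1 ran opposite, at -0.837 over 28 arrays and -0.703 over 25. The array spread had r of 0.554 with Dnajb2 and -0.55 with Hspd1, and its part in this pair was not tested either.

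Bag3, which links Hsp70 with small heat shock proteins, and Hspb1 had r = 0.869 over 28 arrays and 0.853 over 25. The mean of the fibroblast and matrix markers had r of 0.635 with Bag3 and 0.556 with Hspb1, and its part in the pair was not tested. Among all 17831 probe sets Hspb1 was the second nearest to Bag3, and Bag3 the third nearest to Hspb1, and over 25 arrays these ranks were 5 and 2. Hspa1a and Hsph1, an inducible Hsp70 and its exchange factor, had r = 0.792 over 28 arrays and 0.799 over 25. Hsph1 ranked 1 among all probe sets by nearness to Hspa1a over 28 arrays and 3 over 25. Both r values include IL-1b 2 h replicate 2, at 1.72 for Hspa1a and 0.341 for Hsph1, the highest values of its group. No correlation was computed without that array. The array spread had r of 0.206 with Hspa1a and 0.283 with Hsph1. It had r of 0.474 with Bag3 and 0.5 with Hspb1, and -0.611 with Dnaja1 and -0.463 with Hsp90aa1. Dnaja1 and Hsp90aa1 had r = 0.83, and 0.695 without the 3 arrays. Hspb3, by contrast, had its nearest member in Dnaja3 at 0.552, ranked 537 among all probe sets, and over 25 arrays in Dnaja4 at 0.378, ranked 1121. Hspb2 and Cryab, neighbours on the genome, had r = 0.196.

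**Figure D5:**
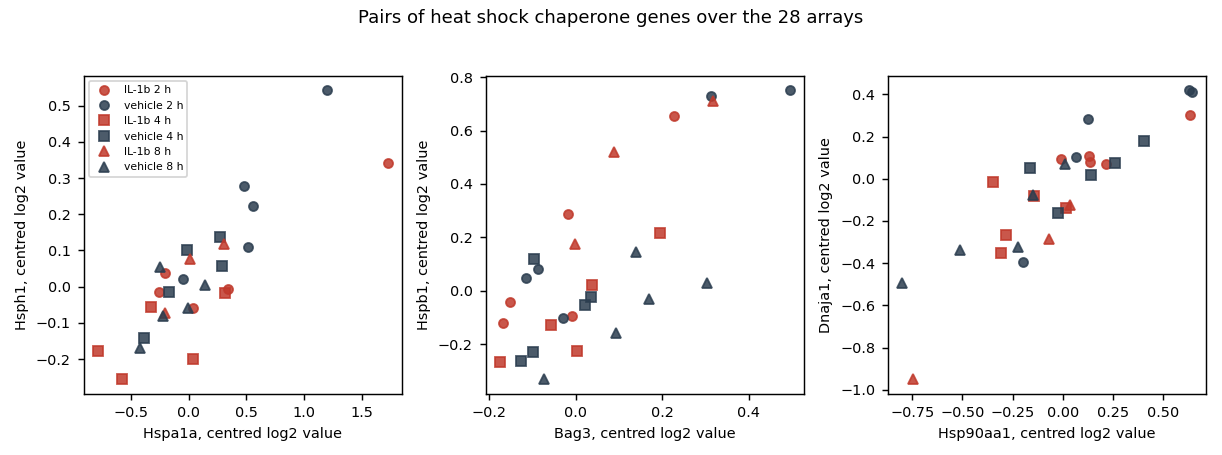
Centred log2 values of 1 gene against another on each of 28 arrays, group means kept, with IL-1b arrays in red, vehicle arrays in dark blue and a symbol for each time. Pearson r is 0.842 for Hspa1a with Hsph1, 0.75 for Bag3 with Hspb1 and 0.876 for Hsp90aa1 with Dnaja1, and the arrays at 1.72 and 1.2 for Hspa1a lie apart from the others.

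In the fixed lists of other chaperone genes, 2 genes passed, Fkbp5 and Creld2. Of 11 measured Hsp90 cochaperones of 15 listed, 1 was higher after IL-1b at 4 h and the same 1 at 8 h, none was lower, and the other 10 did not pass. This was Fkbp5, an immunophilin on Hsp90 that glucocorticoids induce, at 1.11 ± 0.18 on the log2 scale at 4 h (adjusted p = 0.00055) and 2.34 ± 0.21 at 8 h (adjusted p = 3.74e-08). Its IL-1b effect at 8 h minus that at 2 h, 1.79 ± 0.27, passed as well (adjusted p = 0.00053). Fkbp4, its counterpart among the members, differed by -0.09 and -0.12 at the same times. Of 13 measured endoplasmic reticulum chaperones, Creld2 alone passed, with a difference of -0.43 ± 0.07 between vehicle muscle at 8 h and at 2 h (adjusted p = 0.00108). None passed after IL-1b. Under the looser limit of an unadjusted p of 0.05 in limma, 8 of the 13 were lower after IL-1b at 2 h, 5 at 4 h and 4 at 8 h. None was higher at that limit, and the shares of all probe sets in either direction were 10.6%, 8.78% and 12.9%. Median differences of the 13 were -0.20, -0.19 and -0.15. In vehicle muscle 8 were lower at 8 h than at 2 h at that limit, against 10.3% of all probe sets, with a median of -0.24. No gene passed in any of the 6 comparisons of treatment or time among 21 other Hsp70 and J-domain genes, 13 genes of the CCT chaperonin and prefoldin, 13 mitochondrial cochaperones and proteases, or 5 regulators of heat shock factors and other heat-inducible genes.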

How the data were processed

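Muscle RNA was hybridized to Affymetrix whole-transcript arrays. The log2 values analysed were deposited by the authors after RMA. The build named by the submitters' processing notes is mm9. The log base and the centring of each probe set (median 0 within 1e-06) are not stated, and were read from the values. No depth applies to arrays, and the number of arrays limits the precision. Groups follow the sample titles. In 1 title the letter for IL-1b is printed as a digit, and it was read as replicate 18. A model over the 6 groups was fitted to all 17831 probe sets in limma 3.58.1 (R 4.3.3), with 22 residual and 3.95 prior degrees of freedom, and 9 contrasts were adjusted by the Benjamini-Hochberg method. The threshold was an adjusted p of 0.01, and intervals are 95%. The fit was tested on simulated data. No filter on low values was applied. A gene with several probe sets is given by the lowest probe set number. Values of every array are given for genes past the threshold and then for those of largest moderated t, up to 12, and the values of Hspa1a, Dnajb1 and others were added after being seen. The members and the gene lists were chosen with earlier results of these data known. Marker lists covered fast, slow and shared muscle genes, neutrophils, macrophages, endothelium, fibroblasts and adipocytes. Motifs were searched by their letters on both strands. Alternatives were other spread estimates, fits of the compared arrays only, array weights, quantile normalization, other thresholds, arrays left out and a replicate block.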

Additional observations from a re-analysis of the deposited data

Results flagged for a closer look

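Over the 39 probe sets of the members, each with 5 groups of 5 arrays, 195 groups were examined. In 17 of them 1 array lay so far from the others that its gap was over 0.71 of the range of the group, and chance gives about 1 in 20. The share over all probe sets was not computed, so the count is not shown to be particular to the members. In 11 of the 17 the array was IL-1b 2 h replicate 2, which also lacked the Selp and Icam1 response. It was high in 6 probe sets of 5 genes. There Dnajb1 was at 1.03, against -0.177 to 0.0613 in the other IL-1b 2 h arrays, Hsph1 at 0.341, against -0.0593 to 0.0388, and Dnajb2 at 0.167, against -0.0434 to 0.00206. Fkbp4 was at 0.135, against -0.00268 to 0.0287. Dnaja1 was at 0.303, against 0.0703 to 0.108, and its second probe set at 0.379, against 0.0606 to 0.131. It was low in 5 other genes, with Dnajb6 at -0.641, against -0.117 to 0.0953, Hsf2 at -0.195, against 0.112 to 0.225, and Hspd1 at -0.187, against 0.0965 to 0.159. Ptges3 was at -0.158, against 0.123 to 0.195, and St13 at 0.0186, against 0.112 to 0.122. Vehicle 2 h replicate 7 was low in Dnajb4, at -0.254, against 0.102 to 0.216, and in Dnaja3, at -0.342, against -0.0808 to 0.00733. Vehicle 2 h replicate 1 was at 0.661 for Dnajb1, against 0.0818 to 0.214, and at -0.246 for Bag1, against -0.0349 to 0.0433. Vehicle 8 h replicate 9 was at 0.093 for Hspa8, against -0.0486 to -0.0286, and IL-1b 4 h replicate 18 at 0.107 for Cryab, against -0.0697 to -0.0236.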

How the results depend on the processing

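Of the counts of members called, 170 alternatives stayed within 1.5 times the reported count and 15 did not. For the differences of the named genes and the second Dnaja1 probe set, 209 alternatives kept the call or its absence, 9 gained a call and 11 lost it. None of these differences changed sign. At 8 h, IL-1b against vehicle, 1 member was reported. The count was 0 when only the compared arrays were fitted, 0 after quantile normalization, 2 at an adjusted p of 0.05 (Hspb3 and Hspb8), 8 with array weights (Dnajb5, Bag2, Ptges3, Chordc1, Hspb1, Hspb3, Hspb7 and Hspb8) and 1 to 2 on leaving out 1 array. The array weights did not fully converge. They gave IL-1b 8 h replicate 26 a weight of 28, against 0.626 and 0.194 for the other two, so that the weighted IL-1b 8 h group was practically 1 array. They called 14.7% of all probe sets at 8 h, 1.57% for vehicle 8 h against 2 h, and 3.74% and 2.95% for the change of effect from 4 to 8 h and from 2 to 8 h. Vehicle 8 h against 2 h gave 1 member (Dnaja1) in place of 0 with array weights, without the 3 arrays of widest spread, and with the highest probe set number, and 0 to 0 on leaving out 1 array. The change of the IL-1b effect from 4 to 8 h gave 4 members with array weights (Hspa4, Hsph1, Hsp90aa1 and Ptges3). From 2 to 8 h it gave 2 with array weights (Hspb1 and Hspb3), 1 at an adjusted p of 0.05 (Hspb3), and 0 to 1 on leaving out 1 array, where IL-1b 2 h replicate 2 or vehicle 8 h replicate 1 gave the 1. The joint rule over the 6 groups gave 1 with no fold limit. Every other leave-one-out count was 0 to 0. Leaving out 1 array, Hspb3 at 8 h ranged from -0.67 to -0.51 (adjusted p 0.000154 to 0.00987) and Hspb8 from -0.52 to -0.27 (0.00607 to 0.158). The causes were not tested, except that fewer arrays enter the fit of the compared arrays only. No paired analysis was possible because the IL-1b and vehicle groups of one time share no number in their titles. Vehicle groups share some numbers, and same-numbered arrays deviated together for number 1 (r from 0.374 to 0.678) but not for the other numbers (-0.434 to 0.0567), so the numbers were not taken to pair the arrays. IL-1b groups of different times share number 4 (2 and 4 h) and number 22 (4 and 8 h), and these arrays were not compared in this way. With the replicate block on vehicle arrays the counts were 0, 0 and 0, and the second Dnaja1 probe set was at -0.60 (adjusted p = 0.341). Without a block it was at -0.47 (0.0356). The settings that dropped IL-1b 2 h replicate 2, those that dropped the widest arrays from the pair correlations, and the fit of vehicle arrays with no block were chosen after seeing the data.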
